A study of Homo sapiens with 6 samples.

Results

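The genes described here encode the sensors of double-stranded RNA in human cells and the proteins that pass on or limit their signal. They are IFIH1 (the sensor MDA5), RIGI (formerly DDX58, the sensor RIG-I), DHX58 (LGP2), TLR3, MAVS, EIF2AK2 (the kinase PKR), ADAR and TRIM25. They were chosen by symbol, with every annotated probe taken, which gave 12 probes of 8 genes among 47225 probes on the array. RNA came from Ju77, labelled as malignant mesothelioma cells from human lung. One group of 3 arrays held cells resistant to ADI-PEG20, a pegylated arginine deiminase that removes arginine from the medium, and the other group of 3 arrays held parental Ju77 cells. Cells were plated 1 day before the RNA extraction, and the labels do not say whether drug was present then, nor whether the resistant line is a clone. Nothing in them says that the arrays of a group came from separate cultures, and the p-values may therefore rest on technical spread alone. With a single line in each group, resistance and other differences of these lines cannot be told apart.

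Between 19024 and 20113 probes per array had a detection p-value under 0.05, which is called detected below. Mean intensities over all probes were 431 ± 20.1 (SD, n = 3) for resistant and 480 ± 16.1 (SD, n = 3) for parental arrays. Levels below are log2 intensities after background correction and quantile normalisation, and differences are resistant minus parental on that scale. Correlations between arrays over the tested probes were 0.992 to 0.995 within groups and 0.968 to 0.970 between them. Of 9 mesothelial markers 5 were detected on all resistant and 6 on all parental arrays, and KRT5 and ITLN1 were detected on no array. Markers of this list differed between the lines in both directions. Calretinin (CALB2) was higher in the resistant cells by 2.74 (limma adjusted p = 4.73e-06), whereas LRRN4 fell by 0.79 and BNC1 fell by 0.61. Podoplanin (PDPN), detected on 1 resistant array and all parental arrays, gave -2.38, and mesothelin (MSLN, 0.12) and WT1 (-0.33) were not called. Of 14 leukocyte markers 2 to 3 were detected on each resistant array and 3 on each parental array. CD68 and FCGR3A were detected on all 6 arrays, and MS4A1 and CD79A on some of them. The other 10 markers, among them PTPRC, the pan-leukocyte antigen CD45, were detected on none. The summed log2 intensity over the mesothelial probes was 122.9 to 123.2 on the resistant and 125.5 to 126.5 on the parental arrays, a sum over probes that moved both ways. The part of these marker differences in the results below was not tested. The summed log2 intensity over the leukocyte probes was 141.5 to 143.4 on the resistant and 142.5 to 142.8 on the parental arrays. Most of these probes were not detected, so this sum lies mostly at background and cannot measure leukocyte content.

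Long double-stranded RNA is rare in a resting cell and is a mark of viral replication, of mitochondrial transcripts or of repeats read from both strands. In the cytosol RIG-I binds short duplexes with uncapped 5′ ends, MDA5 assembles along long duplexes, and LGP2 assists MDA5. RIG-I and MDA5 signal through MAVS on mitochondria to the kinase TBK1, the transcription factors IRF3 and IRF7 and the interferon genes. TRIM25 is a ubiquitin ligase that takes part in RIG-I activation, and TLR3 senses duplex RNA in endosomes. PKR stops translation by phosphorylating eIF2-alpha, and ADAR edits adenosines in duplexes to inosine, which keeps the cell's own RNA from these sensors. Many of these genes are induced by interferon through response elements in their promoters.

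The promoter windows of IFIH1, RIGI, EIF2AK2 and TLR3 are shown because they set sensors that changed beside one that was not detected, as described below. They are RefSeq windows on GRCh38.p14, from 250 bases before to 50 bases after the start site, written 5′ to 3′ on the gene's strand. Capitals mark matches, on either strand, to the interferon-stimulated response element (GAAA, any 2 bases, GAAA) or the shorter IRF core AANNGAAA, which lies within it.
IFIH1, chr2:162318635-162318934, minus strand: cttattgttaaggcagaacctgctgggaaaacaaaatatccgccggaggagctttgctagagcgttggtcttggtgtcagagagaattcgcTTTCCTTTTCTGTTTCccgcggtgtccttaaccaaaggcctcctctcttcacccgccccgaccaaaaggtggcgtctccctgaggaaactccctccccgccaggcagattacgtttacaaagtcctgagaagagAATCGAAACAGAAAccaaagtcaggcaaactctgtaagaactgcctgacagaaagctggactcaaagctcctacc
RIGI, chr9:32526147-32526446, minus strand: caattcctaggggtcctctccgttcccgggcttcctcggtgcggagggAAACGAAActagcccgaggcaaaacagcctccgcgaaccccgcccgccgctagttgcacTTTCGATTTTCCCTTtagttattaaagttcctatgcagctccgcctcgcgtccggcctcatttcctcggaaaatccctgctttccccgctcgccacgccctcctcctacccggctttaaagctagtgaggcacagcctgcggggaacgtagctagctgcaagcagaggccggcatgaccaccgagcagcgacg
EIF2AK2, chr2:37156931-37157230, minus strand: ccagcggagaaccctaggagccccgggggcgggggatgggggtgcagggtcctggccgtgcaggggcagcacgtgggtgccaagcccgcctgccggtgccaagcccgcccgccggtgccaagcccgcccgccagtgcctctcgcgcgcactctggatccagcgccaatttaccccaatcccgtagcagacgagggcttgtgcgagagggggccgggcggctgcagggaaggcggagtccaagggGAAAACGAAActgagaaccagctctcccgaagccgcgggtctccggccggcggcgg
TLR3, chr4:186068906-186069205, plus strand: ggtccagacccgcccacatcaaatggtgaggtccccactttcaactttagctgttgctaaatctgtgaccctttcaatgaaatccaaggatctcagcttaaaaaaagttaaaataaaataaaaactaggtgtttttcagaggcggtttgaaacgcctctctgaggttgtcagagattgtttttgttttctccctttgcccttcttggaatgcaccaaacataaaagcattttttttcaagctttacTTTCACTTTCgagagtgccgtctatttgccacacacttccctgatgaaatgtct
The IFIH1 window held 3 matches to the response element, 2 of them overlapping, and the match nearest the start site, GAAACAGAAA, lay at -21 to -12. The EIF2AK2 window held 1, GAAAACGAAA, across the start site from -6 to 4. The TLR3 window also held 1, GAAAGTGAAA on the other strand, from -4 to 6. The RIGI window held none, but 3 matches to the core AANNGAAA, at -202 to -195, at -143 to -136 and at -136 to -129. The TRIM25 window held 1 match to the core, AAACGAAA, and neither the MAVS window nor any of the 3 ADAR windows held a match. Of 35116 windows of this length 3.57% held the response element and 22.8% held AANNGAAA, so the core alone is common. DHX58 had no window in the table used here. These matches are letters in a short window, and no binding was measured.

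The RNA of IFIH1, RIGI, EIF2AK2 and ADAR was higher in the resistant cells, with the largest difference for the MDA5 gene IFIH1. No member was called lower. MAVS and TRIM25 were detected on all arrays without passing the test, and DHX58 and TLR3 were detected on none. Of the 12 probes 7 entered the test, and all of these were detected on all 6 arrays, so none entered through 1 group alone. The test called 5 of the 7 higher and none lower by limma at an adjusted p under 0.05, against 18.7% of all 17843 tested probes called higher and 20.2% called lower, or 38.8% in either direction. The median difference of the 7 was 0.70, against -0.01 over all tested probes. The 5 called probes belong to 4 genes, since ADAR counts more than once. The members were chosen with earlier results of these data known, so these shares describe the list and do not test it. In bulk RNA a higher level in every cell and a larger share of cells with the transcript cannot be told apart.

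**Figure D1:**
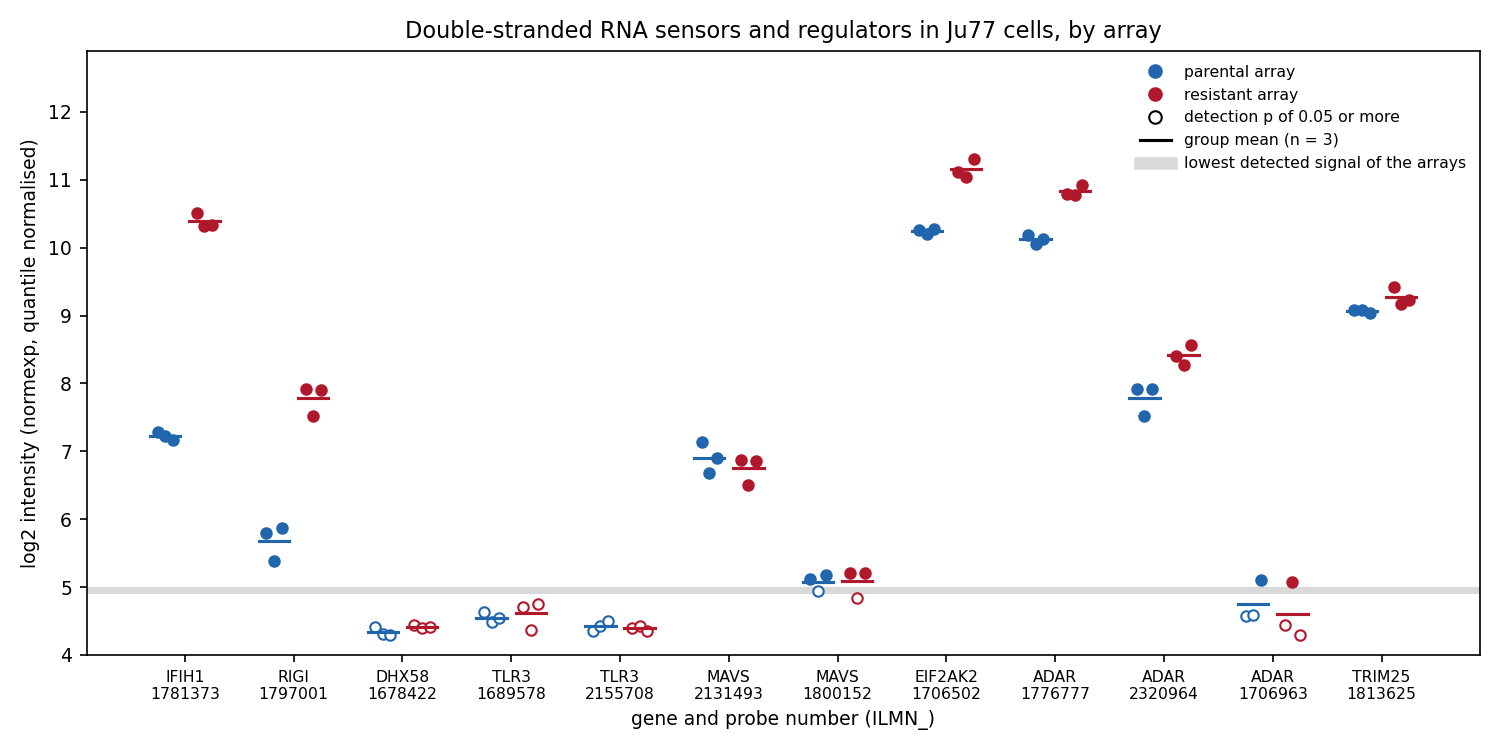
Log2 intensity of all 12 probes on each array, parental in blue and resistant in red, with lines for the group means of 3 arrays. Open points were not detected, and the grey band spans the lowest detected signals of the 6 arrays. The 2 groups stand furthest apart for IFIH1 and RIGI, and the DHX58 and TLR3 probes lie below the band on every array.

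IFIH1 encodes MDA5, the sensor of long duplex RNA, and lies on chromosome 2. Its probe ILMN_1781373 gave log2 levels of 7.29, 7.22 and 7.16 on parental arrays 1 to 3 and 10.51, 10.32 and 10.33 on resistant arrays 1 to 3. Every resistant array was above every parental array, and the smallest of the gaps between a resistant and a parental array was 3.03. The deposited intensities behind these levels were 258 to 270 on the parental arrays and 1190.0 to 1515 on the resistant arrays, a ratio of means of 5.04. After correction the difference was 3.16 (SE 0.09, 95% interval 2.95 to 3.37), which is 8.95-fold (limma adjusted p = 1.11e-06). By absolute size it ranked 25 among the 17843 tested probes. Without background correction the difference was 2.45.

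RIGI encodes RIG-I, the sensor of 5′ triphosphate RNA ends, and lies on chromosome 9. Its probe ILMN_1797001 was detected on all arrays, with levels of 5.79, 5.38 and 5.87 on the parental arrays and of 7.92, 7.51 and 7.90 on the resistant arrays. The groups did not overlap, and replicate 2 was the lowest array in both of them. The difference was 2.10 (SE 0.16, 95% interval 1.72 to 2.47), which is 4.28-fold (limma adjusted p = 7.65e-05), and it ranked 117 by absolute size. Deposited intensities were 145 to 171 on the parental and 255 to 340 on the resistant arrays, a ratio of means of 1.92. The size of this difference rests on the background correction, since it was 1.00 without the correction and 1.13 with the deposited log2 values, each past the threshold.

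DHX58, on chromosome 17, encodes LGP2, which resembles RIG-I and MDA5 but lacks their signalling domains. Its single probe ILMN_1678422 was detected on no array, with deposited intensities of 107 to 115 on the resistant and 108 to 114 on the parental arrays. No fold is given for it, since both groups were below detection. The levels of IFIH1 and RIGI therefore stand beside a related helicase whose probe was below detection in both lines.

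TLR3, on chromosome 4, encodes the endosomal receptor for duplex RNA. Both of its probes, ILMN_1689578 and ILMN_2155708, were detected on none of the 6 arrays. Deposited intensities were 106 to 126 and 104 to 113 on the resistant arrays, and 118 to 125 and 110 to 123 on the parental arrays. The 2 probes gave overlapping groups. In a fit of all 47225 probes without the detection filter, the 5 dim probes of the members had differences from -0.15 to 0.07 and limma adjusted p-values from 0.692 to 0.992.

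EIF2AK2, on chromosome 2, encodes PKR, a kinase switched on by duplex RNA. Its probe ILMN_1706502 was detected on all arrays, with levels of 10.26, 10.19 and 10.27 on the parental arrays and 11.11, 11.04 and 11.30 on the resistant arrays. The groups did not overlap, and the highest parental array was 0.78 below the lowest resistant array. EIF2AK2 rose by 0.91 (SE 0.09, 95% interval 0.69 to 1.13), which is 1.88-fold (limma adjusted p = 2.98e-04). The deposited intensities gave a ratio of means of 1.53.

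ADAR, on chromosome 1, encodes the adenosine deaminase that edits duplex RNA, made as a long interferon-induced form and a shorter constant form. Probe ILMN_1776777, annotated to the transcript NM_001111, gave levels of 10.19, 10.05 and 10.13 on the parental and 10.79, 10.77 and 10.93 on the resistant arrays. Probe ILMN_2320964, annotated to NM_015840, gave 7.92, 7.53 and 7.92 on the parental and 8.40, 8.28 and 8.57 on the resistant arrays. Both probes had groups that did not overlap. The differences were 0.70 (SE 0.09, 95% interval 0.50 to 0.91, limma adjusted p = 6.74e-04) and 0.63 (SE 0.13, 95% interval 0.32 to 0.94, limma adjusted p = 0.00823), each within the other's interval. The third probe, ILMN_1706963, annotated to NM_001025107, was detected on 1 resistant and 1 parental array and was not tested. Its levels were 4.44, 5.07 and 4.29 on the resistant and 4.57, 4.59 and 5.10 on the parental arrays, which overlapped. Probe sequences were not used here, so which ADAR transcripts each probe reads was not determined.

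MAVS, on chromosome 20, encodes the mitochondrial adaptor that RIG-I and MDA5 share. Its brighter probe ILMN_2131493 gave levels of 7.13, 6.68 and 6.90 on the parental and 6.88, 6.50 and 6.86 on the resistant arrays, and the groups overlapped. The difference was -0.16 with a 95% interval from -0.50 to 0.18 (limma adjusted p = 0.422), so these arrays leave room for a fall to 0.71 or a rise to 1.13 times the parental level. The dimmer probe ILMN_1800152 was detected on 2 arrays of each group and was not tested, with levels of 4.94 to 5.17 on the parental and 4.84 to 5.21 on the resistant arrays.

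TRIM25, on chromosome 17, encodes the ubiquitin ligase. Its probe ILMN_1813625 gave levels of 9.08, 9.08 and 9.03 on the parental and 9.41, 9.17 and 9.23 on the resistant arrays. The groups did not overlap, but the difference was small, 0.21 with a 95% interval from -0.01 to 0.42 (limma adjusted p = 0.111). Groups without overlap and higher in the resistant cells were found for 6 of the 7 tested member probes, and for 24.6% of all tested probes. Groups without overlap and lower in the resistant cells were found for none of the 7, and for 26.9% of all tested probes. The deposited TRIM25 intensities were 591 to 758 on the resistant and 667 to 701 on the parental arrays and overlapped, with a ratio of means of 0.973. Scaling to a common median gave a difference of 0.02 (limma adjusted p = 0.904), whereas omitting the background correction gave 0.17 (limma adjusted p = 0.0406) and the deposited log2 values gave 0.19 (limma adjusted p = 0.0348).

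**Figure D2:**
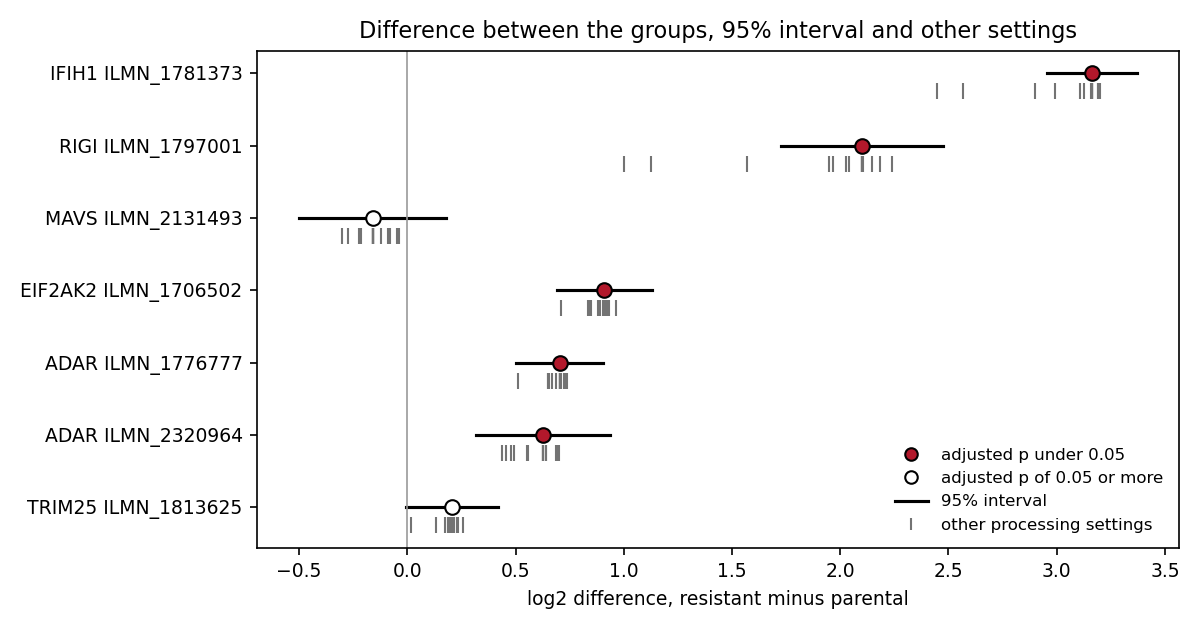
Log2 difference, resistant minus parental, of the 7 tested member probes, with 95% intervals, and as grey ticks the differences under up to 17 other processing settings. Red points passed an adjusted p under 0.05. The IFIH1 and RIGI intervals are clear of each other and of EIF2AK2 at 0.91, and the MAVS and TRIM25 intervals include 0.

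In order of size the differences were 3.16 for IFIH1, 2.10 for RIGI, 0.91 for EIF2AK2, 0.70 and 0.63 for the ADAR probes, 0.21 for TRIM25 and -0.16 for MAVS. With background correction the intervals of IFIH1, RIGI and EIF2AK2 did not overlap. Without the correction RIGI gave 1.00 and EIF2AK2 gave 0.85, and with the deposited log2 values 1.13 and 0.83. The size of the gap between RIGI and EIF2AK2 therefore rests on the processing. The intervals of EIF2AK2 and both ADAR probes overlapped, and that of the dimmer ADAR probe also overlapped that of TRIM25. Differences between probes were not tested. With the brightest probe of each gene, the order IFIH1, RIGI, EIF2AK2, ADAR held in all 17 other settings, and all 4 were called in each of them. These settings include the omission of each array in turn. Scaling to a common median moved the median over all tested probes to -0.15, called 11.3% of them higher and 31.3% lower, and gave 2.99 for IFIH1, 1.97 for RIGI, 0.71 for EIF2AK2 and 0.51 for the brighter ADAR probe.

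**Figure D3:**
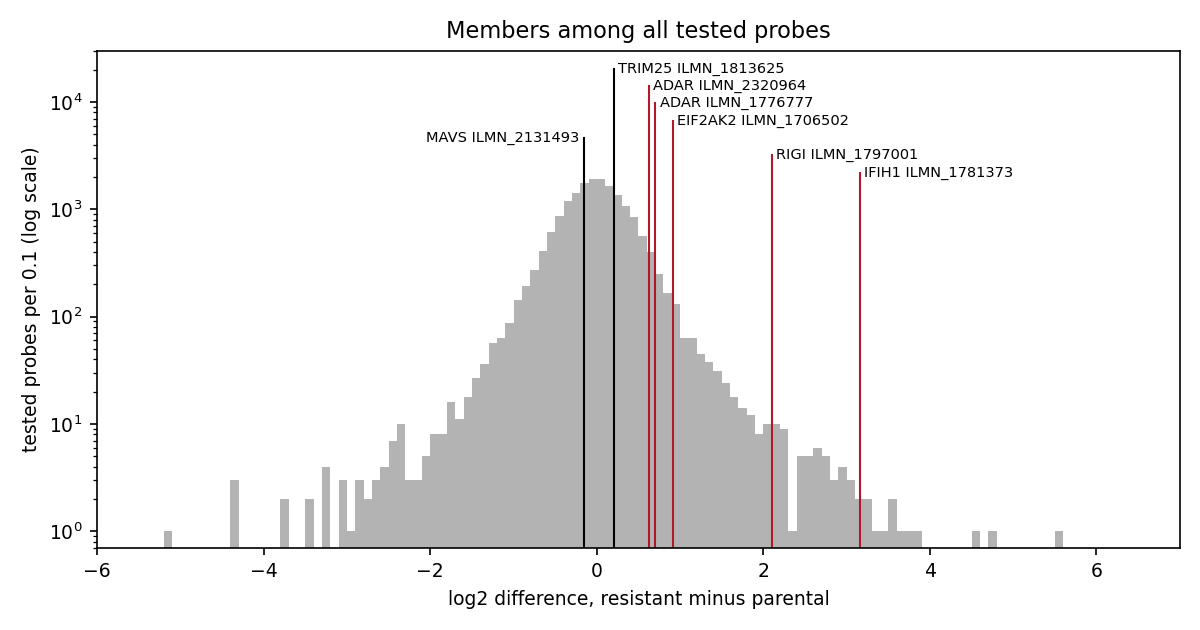
Histogram of the log2 difference of all 17843 tested probes, with a log scale for the number of probes per bin of 0.1, and vertical lines at the 7 member probes (red where the adjusted p was under 0.05, black otherwise). IFIH1 at 3.16 and RIGI at 2.10 lie in the upper tail, and MAVS and TRIM25 lie within the bulk.

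The genes most like IFIH1 and RIGI were taken as those whose 6 log2 values, centred on the parental mean, had the smallest root mean square distance from theirs. For IFIH1 these were MFAP5, a microfibril protein (distance 0.14), the guanylate-binding protein GBP1 (0.16), the cadherin CDH10 (0.18) and the ubiquitin ligase subunit FBXO32 (0.18). Their differences were 3.06, 2.99, 3.01 and 3.11. For RIGI they were MEX3B, an RNA-binding protein (0.17), TMEM140 (0.17), the antiviral factor SAMD9 (0.18) and the chemokine CCL5 (0.19). MEX3B had a difference of 2.09, SAMD9 of 2.27 and CCL5 of 2.00. Without background correction RIGI gave 1.00, MEX3B 1.42, SAMD9 1.89 and CCL5 1.25, so how near these genes lie to RIGI depends on the correction. Distances without the correction were not computed. TMEM140 was below detection on the 3 parental arrays and entered the test through the resistant arrays alone. Its distance from RIGI therefore rests partly on undetected levels. In place of a fold its deposited intensities are given, which were 170 to 199 on the resistant and 119 to 123 on the parental arrays. With 3 arrays a group, the distance over 6 values depends mainly on the size of the group difference.

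Other genes of the response were taken in 4 lists with 76 genes, of which 72 had a probe and 64 a tested probe, and each gene was read by its brightest tested probe. Over all 4 lists the test called 14 genes higher and 14 lower. That is 21.9% in each direction, beside 20.9% higher and 21.4% lower, or 42.3% in either direction, among all 10672 tested genes. The median difference was -0.02, against -0.004 over all tested genes. With median scaling the counts were 10 higher and 21 lower, against 12.7% and 33.2% of all tested genes. The number called lower fell to 7 without parental replicate 1 and to 8 without resistant replicate 2.

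Downstream of MAVS and TLR3, 5 of 19 tested adaptors, kinases and transcription factors were higher and 1 was lower. With median scaling 4 were higher and 4 lower. Over all tested genes the shares were 20.9% higher and 21.4% lower, and 12.7% and 33.2% with median scaling. IRF7, the interferon-induced transcription factor of the pathway, had levels of 7.39, 6.90 and 7.01 on the parental and 8.46, 8.50 and 8.71 on the resistant arrays. It rose by 1.46 (SE 0.14, limma adjusted p = 2.19e-04), and a second IRF7 probe gave 1.41. Without background correction the difference was 0.95. IRF3, which MAVS signalling activates without new synthesis, rose by 0.59, from 7.56 to 7.70 on the parental arrays to 8.02 to 8.39 on the resistant arrays. TANK, a scaffold of TBK1, rose by 0.51 on its brightest probe, but a second probe gave 0.38 and was not called (limma adjusted p = 0.0596). IKBKE, a kinase related to TBK1, was detected on 1 of 3 parental arrays and entered the test through the resistant arrays alone. Over the 18 genes of this list detected on all arrays, 4 were higher and 1 lower. The IKBKE difference was 0.47, but 0.12 without background correction, its deposited intensities had a ratio of means of 1.03, and its call was lost in 8 of 16 other settings (limma adjusted p from 0.00391 to 0.105 over all 16). TBK1 itself gave 0.10 and was not called (limma adjusted p = 0.427). The interferon genes IFNB1 and IFNL1, the outputs of this pathway, were detected on no array.

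Among the regulators of RIG-I, MDA5 and MAVS, 7 of 23 tested genes were higher and 4 lower, and with median scaling 5 and 6. The shares over all tested genes were again 20.9% and 21.4%, and 12.7% and 33.2% with median scaling. TRIM4, a ubiquitin ligase for RIG-I, rose by 1.04 (SE 0.09, limma adjusted p = 1.29e-04), from 7.20 to 7.29 on the parental arrays to 8.18 to 8.41 on the resistant arrays. DDX60, a helicase linked to RIG-I signalling, rose by 0.99 (SE 0.11), from 6.13 to 6.45 to 7.23 to 7.42. The autophagy protein ATG5 and the deubiquitinase CYLD, both described as brakes on RIG-I signalling, rose by 0.59 each. Without background correction these differences were smaller, 0.68 for TRIM4, 0.49 for DDX60, 0.30 for ATG5 and 0.25 for CYLD, each still past the threshold. The groups did not overlap for any of these 4 genes, which were named because they were called with the largest differences of the list. None of the 4 genes called lower is among them, though the largest fall, -0.57, was close in size to the rises of ATG5 and CYLD. Groups without overlap and higher in the resistant cells were found for 24.6% of all tested probes.

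Of 18 other tested proteins that bind, cut or degrade duplex RNA, 8 were lower and 2 higher, with a median difference of -0.22. With median scaling 10 were lower and 1 higher. Over all tested genes 21.4% were lower and 20.9% higher, and 33.2% and 12.7% with median scaling. ADARB1, the second catalytically active adenosine deaminase of this family, moved opposite to ADAR. It had levels of 9.54, 9.50 and 9.54 on the parental and 8.70, 8.74 and 8.68 on the resistant arrays, and fell by 0.82 (SE 0.08, limma adjusted p = 1.84e-04), with -0.84 on a second probe. The nucleolar helicase DDX21 fell by 0.57 and SUPV3L1, a mitochondrial helicase that takes part in RNA decay, fell by 0.49, or by 0.31 without background correction. ZNFX1, an interferon-induced helicase described as a sensor of viral RNA on mitochondria, rose by 0.98 (SE 0.12), from 8.13 to 8.44 to 9.09 to 9.41. PRKRA, the protein activator of PKR known as PACT, gave 0.04 (limma adjusted p = 0.681), and ZBP1, a sensor of Z-form RNA, was detected on no array.

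The substrate of PKR and its brakes made a list of 5 genes, 4 of them tested, of which 1 was lower and none higher. That stands beside 21.4% lower and 20.9% higher over all tested genes. PPP1R15A, the phosphatase subunit GADD34 that reverses eIF2-alpha phosphorylation, had levels of 11.38, 11.29 and 11.42 on the parental and 10.69, 10.65 and 10.68 on the resistant arrays. It fell by 0.69 (SE 0.08, limma adjusted p = 4.84e-04), while EIF2AK2 rose. EIF2S1, which encodes eIF2-alpha, gave 0.04 with a limma adjusted p of 0.777.

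**Figure D4:**
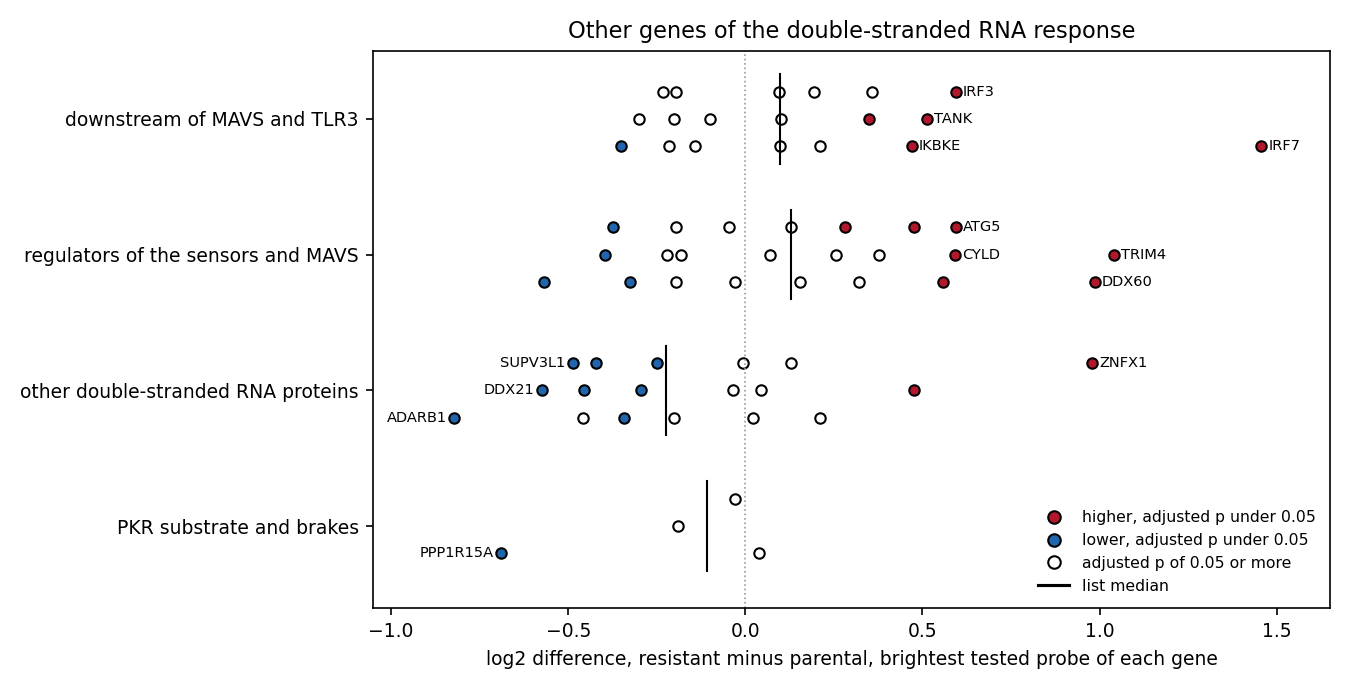
Log2 difference, resistant minus parental, of the 64 tested genes in the 4 lists, by the brightest tested probe of each gene. Red points were called higher, blue points lower and open points neither, black lines are list medians, and the named genes are labelled, from IRF7 at 1.46 to ADARB1 at -0.82.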

How the data were processed

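Biotin-labelled cRNA of 6 Ju77 samples, 3 resistant and 3 parental by their titles, was hybridised to Illumina arrays, per the labels' protocols. The authors deposited probe intensities with detection p-values, described as not normalised, plus a table of log2 values for which no source used here states a method. In a run of 3269 rows both columns were exchanged, so the deposited detection column was read as a mixed score: where it exceeded 1 on an array, its exponential was taken as the intensity. No member probe lies in those rows. The deposited log2 values kept the rank order of the restored intensities on every array (rank correlation 1), with array medians from 6.98 to 6.99.

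Intensities were corrected with the normexp model from detection p-values (offset 16), log2 transformed and quantile normalised (limma 3.58.1, R 4.3.3). Probes detected (p under 0.05) on each of the 3 arrays of either group were tested with lmFit and eBayes, two-sided, without covariates, with Benjamini-Hochberg adjustment across the 17843 probes. Probes were named by the platform's annotation with symbols brought up to date through gene identifiers (99.9% of 30111 named probes matched to GRCh38.p14 genes). The rest were 8 probes with several genes and 17106 unlisted. Where a gene stands for a list, its brightest tested probe was used, and of 25 such pathway genes with several tested probes 17 had the same call on every probe. In the other 8 the call depends on the probe, though 0 had calls in opposite directions. For a probe undetected on a whole group no fold is given. The number of arrays limits the precision. Functions were also run on simulated arrays with independent noise for each probe, which checks the code and not the results given here. The members and lists were chosen with earlier results of these data known. Named genes are all members, up to 4 called genes with the largest difference per list, and the 4 genes nearest IFIH1 and RIGI. The mesothelial and leukocyte markers, TBK1, PRKRA, EIF2S1 and the undetected genes were named after their values were seen. Alternatives covered background correction, normalisation, filter, probe choice, variance trend, exchanged rows, replicate block and each array left out.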

Additional observations from a re-analysis of the deposited data

How the results depend on the processing

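Of 474 values of the 28 named probes under the 17 alternatives, 464 kept their direction and side of the threshold and 0 reversed. The exceptions were IKBKE, no longer called in 8 settings, and TRIM25, called in 2. The count of 5 called member probes ranged from 4, with 1 probe per gene, to 6. Median scaling called 2012 probes higher and 5580 lower, against 3328 and 3599. Pathway genes called lower, 14 in the report, numbered 9 without the detection filter, and ranged from 7 to 13 when each array was left out, with 7 without parental replicate 1 and 8 without resistant replicate 2. The cause was not tested. Over all tested probes, replicate numbers did not pair the arrays (correlations of same-numbered deviations -0.06, 0.01 and 0.06). Pairing over the member probes alone was not tested. With the replicate block 6446 probes were called against 6927, and no call of a member changed. The slide as a block was not run, since the headers name no slide. Low signal over background limits the sizes given. Of the 26 named probes that were called, 10 had a difference over 1.5 times that without background correction, namely RIGI, IRF7, IKBKE, TRIM4, DDX60, ATG5, CYLD, SUPV3L1, TMEM140 and CCL5. TANK gave 0.34 with median scaling. DHX58 and TLR3 have no measured level.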

Other observations

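Replicate 2 of the resistant group gave the lowest level of its group for all 7 tested member probes, and replicate 2 of the parental group for 5 of the 7. The share over all tested probes was not counted, so a trait of the members and one of the arrays cannot be told apart. Before normalisation resistant replicate 2 had the lowest mean probe intensity of the 6 arrays, 415, against 425 and 454 on the other resistant arrays. Without resistant replicate 2 the difference was 3.20 for IFIH1 and 2.24 for RIGI, and without parental replicate 2 it was 3.16 and 1.95.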
